A study of Mus musculus with 6 samples.

Results

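The MAP kinase, AP-1 and immediate early genes described here are a list of 33 genes: AP-1 family factors, EGR and NR4A factors, the IER genes, dual-specificity phosphatases (DUSPs), Sprouty and SPRED genes, and a few further early transcription factors and mRNA-decay factors. Members were found by gene symbol. Of the 33, 32 are in the table of 18478 genes; expression of Nr4a3 was not analysed here, and it enters only the promoter motif counts. A filter on low counts kept 29 members among 14084 genes; Fosb, Spry2 and Nr4a2 were below it and are given as values without a test.

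The samples were 3 CB2 KO and 3 WT preparations of group 2 innate lymphoid cells (ILC2s), which are tissue lymphocytes that make type 2 cytokines without using an antigen receptor. CB2 KO stands for loss of cannabinoid receptor 2, a receptor coupled to inhibitory G proteins and encoded by Cnr2; WT mice served as the controls. Mice of both genotypes were BALB/c, aged 6 weeks, and had 1 µg of recombinant mouse IL-33 given intranasally 3 times. After sorting from the lung, cells of both groups spent 24 h in IL-2 and IL-7 (10 ng/mL each), so every value below is from cells that had been stimulated in the animal and again in culture. The labels give neither the kind of Cnr2 allele nor whether replicates were separate mice or pools. The p-values therefore set the genotype difference against the variation among these libraries. Part of that variation may be technical, and it need not be the variation between mice.

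MAP kinase cascades carry signals from cytokine, antigen and G protein-coupled receptors to transcription factors that are already present in the cell, and these switch on immediate early genes without new protein synthesis. Proteins of the FOS and JUN families then pair as AP-1, EGR and NR4A factors are made alongside, and DUSP, Sprouty and SPRED proteins close the loop by switching the kinases or their upstream activators off. In ILC2s the IL-33 receptor acts through MyD88 on NF-kappaB and MAP kinases, and AP-1 and GATA3 are among the factors that drive type 2 cytokine genes.

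Library totals were 17141698 to 21103769 estimated counts in CB2 KO and 17850840 to 21621008 in WT, and values below are CPM, each count as its share of a library of standard size after TMM scaling. A count of 0 allows up to 3 counts, or 0.142 to 0.174 CPM in CB2 KO and 0.140 to 0.170 CPM in WT, for counting error alone. Cnr2 was at 9.24, 1.60 and 3.84 CPM in the libraries labelled CB2 KO replicates 1 to 3, against 9.32, 17.4 and 15.8 CPM in WT replicates 1 to 3, and the first CB2 KO library came close to the lowest WT one. The library labelled CB2 KO replicate 1 also stood apart from the other 5 on the first principal component, which held 37.6% of the variance, and the values without it are given beside the members it moves most. All 13 ILC2 markers were counted in every library, Gata3 at 932 to 987 CPM in CB2 KO and 994 to 1095 CPM in WT. None passed the threshold, but 10 of the 13 had a negative log2 fold change (median -0.21), 5 were lower and 1 higher at an unadjusted p under 0.05, and 7 lay lower in every CB2 KO library (7.2% of all tested genes did). Nmur1 was at 113, 127 and 111 CPM in CB2 KO and 184, 177 and 199.9 CPM in WT (adjusted p = 0.104 in edgeR's test), and Il5, at 7888 to 10015 CPM in CB2 KO and 6972 to 7871 CPM in WT, lay the other way. The part of this in the members' values was not tested.

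Summed markers of mast cells, and of macrophages when Ccr2 is left out, were higher in every CB2 KO library. The 9 mast cell and basophil markers found summed to 61.0 to 117 CPM in CB2 KO and 25.9 to 49.4 CPM in WT. All 7 that were tested had a positive log2 fold change. Tpsb2 was at 32.3, 15.7 and 21.8 CPM in CB2 KO and 3.31, 1.46 and 2.09 CPM in WT (adjusted p = 0.0860 in edgeR's test). Ms4a2 was at 0 in every library but CB2 KO replicate 3 (1.80 CPM). The 6 macrophage and monocyte markers, without Ccr2, which ILC2s express, summed to 158 to 170 CPM in CB2 KO and 12.1 to 59.2 CPM in WT. Chil3 made up 143, 108 and 135 CPM of this in CB2 KO replicates 1 to 3, and 0.559, 8.68 and 47.5 CPM in WT replicates 1 to 3. Mrc1 and Itgam were at 0 in CB2 KO replicate 1 and all WT libraries. Csf1r was at 0 in CB2 KO replicate 1 and WT replicates 1 and 3, and at 1.46 CPM in WT replicate 2. In CB2 KO replicate 2, Mrc1 was at 4.15, Itgam at 8.02 and Csf1r at 5.47 CPM. In CB2 KO replicate 3 these were at 0, 1.1 and 6.45 CPM. T cell markers summed to 198 to 221 CPM in CB2 KO and 189 to 199.9 CPM in WT, with Cd3d below 1 CPM throughout. Cd3g was at 25.6, 28.9 and 23.9 CPM in CB2 KO and 9.60, 17.2 and 15.1 CPM in WT. Trbc1 was at 76.6, 52.1 and 50.8 CPM in CB2 KO and 45.1, 43.9 and 43.9 CPM in WT. Both lay higher in every CB2 KO library, whereas Trbc2 averaged 119 CPM in CB2 KO and 135 CPM in WT. Of 5 tested, 4 had a positive log2 fold change and 1 a negative one. Mitochondrially encoded RNA was 0.573 to 0.800% of counts in CB2 KO and 0.554 to 0.599% in WT. These other cells also use immediate early genes, and their part in the differences below was not tested. In sorted bulk samples, fewer cells of a kind and less RNA per cell cannot be told apart.

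As a group the members held overlapping shares of the RNA in the 2 genotypes: 0.229, 0.239 and 0.244% of counts in CB2 KO replicates 1 to 3, and 0.230, 0.235 and 0.228% in WT replicates 1 to 3. None of the 29 tested members passed the threshold (0 of 29; quasi-likelihood test of edgeR, Benjamini-Hochberg adjusted over all genes, threshold 0.05), where 0.107% of all tested genes did, 0.0426% higher and 0.0639% lower. The smallest adjusted p of a member was 0.452 in that test. DESeq2 on the same counts called 1 member, Egr3, where it called 2.58% of the genes to which it gave an adjusted p. At an unadjusted p under 0.05, 5 members were higher in CB2 KO (Egr2, Egr3, Ier3, Dusp4 and Btg2) and 1 was lower (Spry1), against 4.33% and 4.27% of all tested genes; together they are 6 of 29, against 8.6% of all tested genes. Egr3 passed the low-count filter through its CB2 KO libraries alone, so it could enter this count, and the counts of groups without overlap below, in 1 direction only. The log2 fold change was positive for 17 members and negative for 12, beside 50% of all tested genes positive. Its median was 0.03 over the members and -3.03e-04 over all tested genes.

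Every CB2 KO library lay above every WT library for Junb, Egr3, Ier3, Ier5 and Dusp4, which is 5 of 29 members where 6.91% of all tested genes did so. Every CB2 KO library lay below every WT library for Spry1, 1 of 29, where 7.2% of all tested genes did so. Without the library labelled CB2 KO replicate 1, 8 members lay above, Ier2, Atf3 and Btg2 joining the other 5, beside 12.3% of all genes. Spry1 remained the 1 member below, beside 11.7%. With that library left out, 0 members passed the threshold in edgeR's test, beside 0.071% of all genes, and 5 (Egr3, Ier2, Atf3, Btg2 and Spry1) had an unadjusted p under 0.05, beside 8.02%. The log2 fold change was then positive for 17 of 29 members, beside 50.5% of all genes.

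**Figure D1:**
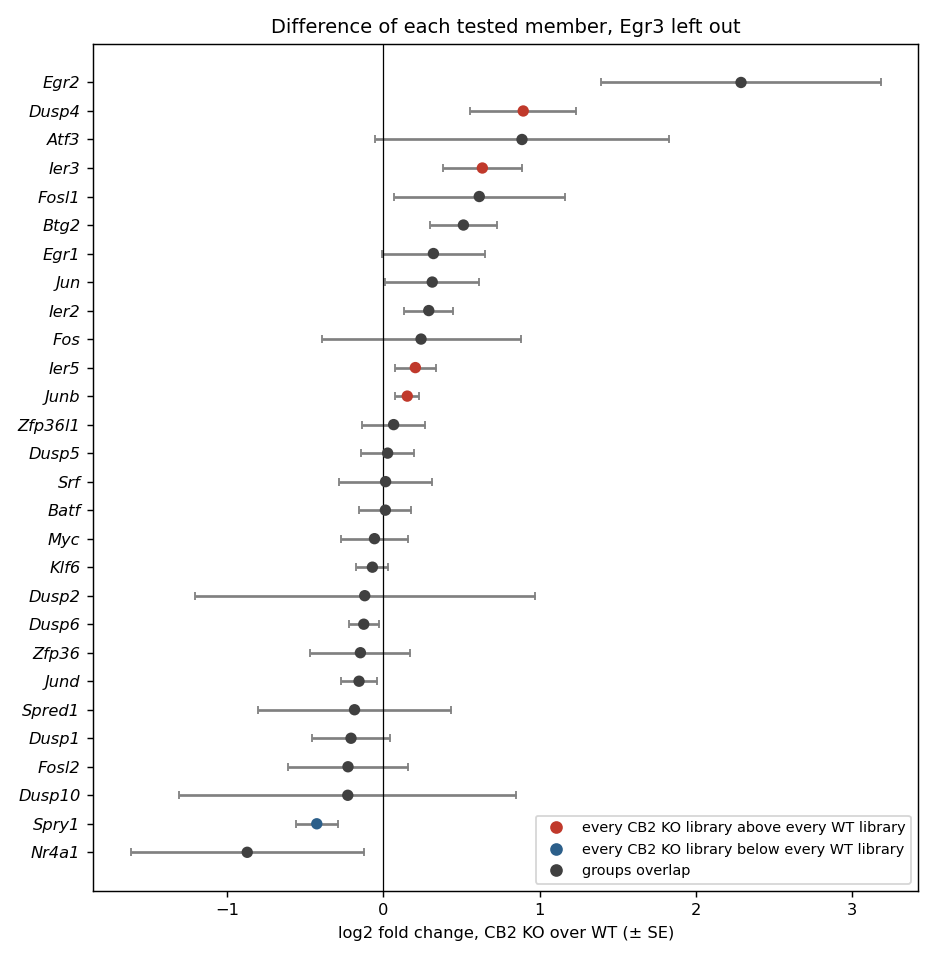
Log2 fold change of CB2 KO over WT with its standard error for 28 tested members; Egr3, with no count in WT, is left out. Many intervals cover 0, and Dusp4, Ier3, Ier5, Junb and Spry1 are the members drawn whose groups did not overlap.

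Start-site windows of the members were read from RefSeq (GRCm38.p6), 250 bases before to 50 after a start, for 27 of the 33 members in 31 windows, 5 of them for Egr2. No window was found for Fosl1, Egr1, Egr3, Ier2, Dusp4 and Myc, so these were not searched. Motifs were searched on both strands. The CArG box, the SRF site, was found in 7 of 31 member windows (22.6%) and in 1.63% of all 32851 windows; the 7 belong to Egr2 (4 windows, 3 of which share bases), Dusp5, Srf and Zfp36. The CRE core TGACG was in 16 of 31 member windows (51.6%) and in 20.81% of all windows, and the full CRE TGACGTCA, which contains that core, was in Btg2 and Dusp1 (6.5% of member windows, 1.79% of all). The 16 include the 3 Egr2 windows that share bases. Counted by gene, the CArG box was in 4 of 27 members and the CRE core in 14 of 27. The pattern searched for AP-1, TGANTCA with any base at N, was in 1 member window, Zfp36l1, as TGATTCA (3.2%, beside 7.81% of all). The EGR motif GCGTGGGCG was in 0 (beside 0.61% of all). A match is a description of the letters, not of binding.

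The 4 windows below are printed because they pair the motifs with unlike values: Egr2 and Btg2 are the members with a window and an unadjusted p under 0.05 that held a match, whereas Srf and Dusp5, each with a pair of CArG boxes, had log2 fold changes of 0.02 and 0.03. Sequences read 5′ to 3′ on the gene's strand, and capitals mark CArG box, CRE and CRE core matches, including CGTCA for the core on the other strand. Egr2 is at chr10:67537619-67537918 (plus strand), Btg2 at chr1:134079106-134079405 (minus), Srf at chr17:46556113-46556412 (minus) and Dusp5 at chr19:53528895-53529194 (plus).
Egr2: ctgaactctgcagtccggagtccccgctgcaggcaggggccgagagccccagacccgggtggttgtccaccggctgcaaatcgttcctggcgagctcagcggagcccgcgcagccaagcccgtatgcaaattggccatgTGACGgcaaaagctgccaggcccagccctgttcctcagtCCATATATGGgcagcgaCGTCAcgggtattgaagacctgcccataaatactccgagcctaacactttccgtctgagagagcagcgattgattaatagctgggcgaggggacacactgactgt
Btg2: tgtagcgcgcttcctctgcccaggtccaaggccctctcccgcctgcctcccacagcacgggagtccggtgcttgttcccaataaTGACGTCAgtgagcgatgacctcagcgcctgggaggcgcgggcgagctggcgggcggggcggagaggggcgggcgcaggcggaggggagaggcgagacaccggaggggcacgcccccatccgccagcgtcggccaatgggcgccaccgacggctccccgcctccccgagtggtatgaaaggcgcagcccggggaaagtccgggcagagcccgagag
Srf: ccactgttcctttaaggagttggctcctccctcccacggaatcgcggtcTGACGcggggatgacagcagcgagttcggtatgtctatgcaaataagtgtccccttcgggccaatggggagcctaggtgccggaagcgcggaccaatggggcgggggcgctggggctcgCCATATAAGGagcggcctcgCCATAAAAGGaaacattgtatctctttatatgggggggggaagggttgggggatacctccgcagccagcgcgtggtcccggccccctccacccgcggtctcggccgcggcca
Dusp5: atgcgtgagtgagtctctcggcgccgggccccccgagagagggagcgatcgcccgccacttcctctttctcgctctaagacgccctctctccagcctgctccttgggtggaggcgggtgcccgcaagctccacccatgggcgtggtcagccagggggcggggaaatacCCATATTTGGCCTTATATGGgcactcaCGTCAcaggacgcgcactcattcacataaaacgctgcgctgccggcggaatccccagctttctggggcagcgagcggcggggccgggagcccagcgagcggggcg
The CArG box of Egr2 reads CCATATATGG and ends 63 bases before the start site, with CRE cores on both sides of it. Dusp5 has its CArG boxes end to end, CCATATTTGG and CCTTATATGG. Ier3 and Spry1, which also had an unadjusted p under 0.05, have a window in the table and no match to any of the 5 motifs.

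Among the FOS family, the AP-1 subunits that need a JUN partner to bind DNA stably, replicates of 1 genotype differed more than the genotypes did. Fos itself was at 25.2, 11.7 and 11.2 CPM in CB2 KO replicates 1 to 3, against 22.8, 14.2 and 2.04 CPM in WT replicates 1 to 3. The groups overlapped, with WT replicate 3 below every CB2 KO library, and the highest library held 12.4 times the CPM of the lowest. Fosl1, which encodes FRA-1, was at 30.9, 13.5 and 11.2 CPM in CB2 KO and 17.5, 5.36 and 14.0 CPM in WT. CB2 KO replicate 1 was the high library here, and the other 5 overlapped. The log2 fold changes of 0.24 (SE 0.64) for Fos and 0.61 (SE 0.55) for Fosl1 did not pass the test. For Fosl1, 57.2% of the exon bases lie opposite exons of Ccdc85b, and whether reads were counted by strand is unknown, so its counts are uncertain. Fosl2, which encodes FRA-2, was at 23.5, 25.7 and 13.8 CPM in CB2 KO and 14.3, 29.3 and 33 CPM in WT, again overlapping. Fosb was almost silent, at 1.49, 0.802 and 0 CPM in CB2 KO and 0, 0.390 and 0 CPM in WT.

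Junb and Jund varied less between replicates than the FOS family did. Junb, the JUN protein most associated with type 2 T helper cells, was at 385, 361 and 389 CPM in CB2 KO replicates 1 to 3, against 359, 346 and 313 CPM in WT replicates 1 to 3. The groups did not overlap, although the nearest libraries were 361 and 359 CPM. The averages of 379 ± 15.4 CPM in CB2 KO and 339 ± 24.0 CPM in WT (SD, n = 3 each) gave a log2 fold change of 0.15 (SE 0.08), with an adjusted p of 0.638 in edgeR's test. Jund, which often acts as a brake on growth, had 187, 165 and 192 CPM in CB2 KO and 195, 227 and 182 CPM in WT. Its groups overlapped, and 52.6% of its exon bases lie opposite Gm11175, which was listed at 20.4 to 70.5 counts. Opposite-strand exons also cover 7.5% of Junb (Prdx2, at 3007 to 4135 counts), 22.1% of Dusp5 and 55.9% of Zfp36l1, whose counts carry the same uncertainty. Jun was at 19.0, 16.4 and 16.0 CPM in CB2 KO and 10.4, 14.0 and 17.7 CPM in WT. The CB2 KO libraries were close together and WT replicate 3 lay among them (log2 fold change 0.31, SE 0.30). Jun shares chromosome 4 with Cnr2, 40.8 Mb away.

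The bZIP partners outside FOS and JUN differed in kind. Batf, which pairs with JUN proteins and works with IRF4 in lymphocytes, overlapped between groups: 108, 77.6 and 82.3 CPM in CB2 KO and 95.7, 81.3 and 88.8 CPM in WT, a log2 fold change of 0.01 (SE 0.17). Atf3, a stress-induced factor that can repress AP-1 targets, had 0, 12.8 and 25.6 CPM in CB2 KO replicates 1 to 3, and 3.91, 9.85 and 6.06 CPM in WT replicates 1 to 3. CB2 KO libraries held both its lowest and its highest value. Its log2 fold change was 0.89 (SE 0.94), and 1.50 (SE 0.51) without the library labelled CB2 KO replicate 1. Neither passed edgeR's test, with adjusted p of 0.852 and 0.571.

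Egr2 and Egr3 had the largest log2 fold changes of the members, at very low levels. EGR factors are zinc finger proteins induced through SRF and its cofactors, and in T cells Egr2 and Egr3 are known for restraining activation. Egr2 (chromosome 10, 67535475 to 67542188, plus strand, GRCm38) was at 6.51, 5.0 and 2.21 CPM in CB2 KO replicates 1 to 3, from 131, 106 and 38 counts. In WT replicates 1 to 3 it was at 0, 0.780 and 2.32 CPM, from 0, 16 and 41 counts. CB2 KO replicate 3 lay just below WT replicate 3, and the other 2 CB2 KO libraries lay above all WT libraries. The averages were 4.57 ± 2.18 CPM in CB2 KO and 1.03 ± 1.18 CPM in WT (SD, n = 3 each), a log2 fold change of 2.29 (SE 0.89) with an adjusted p of 0.512 in edgeR's test. Leaving out 1 library moved it between 1.64 (without WT replicate 1) and 3.60 (without WT replicate 3), and leaving out the first CB2 KO library gave 1.97 (SE 0.97). Of the 4 genes with a printed window, it is the one with the largest value.

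Egr3 (chromosome 14, 70077203 to 70082614, plus strand) had 77, 14 and 29 counts in CB2 KO replicates 1 to 3, or 3.83, 0.661 and 1.69 CPM, and 0 counts in each WT library. Set against 3 counts over the WT group as a whole, it was 40.8-fold higher in CB2 KO. Those 3 counts allow for counting error alone, so the value is not a lower bound. Libraries of 1 genotype can differ by more: Atf3 had 0 counts in CB2 KO replicate 1 and 441 in CB2 KO replicate 3. The library labelled CB2 KO replicate 1 gave 77 of the 120 Egr3 counts, and without it the same 3 counts give 22.3-fold. The adjusted p of Egr3 was 0.452 in edgeR's quasi-likelihood test and 3.96e-04 in DESeq2. With Egr3 set at 40.8-fold, the median log2 fold change of the tested members is still 0.03. The founding member Egr1, higher per exon length than both, overlapped between groups, at 50.8, 25.7 and 39.4 CPM in CB2 KO and 22.8, 29.8 and 41.2 CPM in WT (log2 fold change 0.32, SE 0.33). Without the library labelled CB2 KO replicate 1 that value was 0.06 (SE 0.34).

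The 3 IER genes averaged higher in CB2 KO without passing the test. Ier3, an early response gene linked to cell survival and to ERK signalling (chromosome 17, 35821684 to 35822923, plus strand), was at 44.2, 27.3 and 37.0 CPM in CB2 KO replicates 1 to 3, against 23.6, 21.5 and 24.6 CPM in WT replicates 1 to 3. All CB2 KO libraries lay above all WT libraries, with the WT values close together and the CB2 KO values spread. The averages were 36.2 ± 8.50 CPM in CB2 KO and 23.2 ± 1.59 CPM in WT (SD, n = 3 each), a log2 fold change of 0.63 (SE 0.25), adjusted p = 0.562 in edgeR's test. It was 0.45 (SE 0.25) without the first CB2 KO library. Ier5, which acts on the heat shock factor HSF1, was at 79.3, 78.8 and 77.6 CPM in CB2 KO and 63.2, 69.5 and 72.5 CPM in WT. Here the CB2 KO libraries were within 1.13% (coefficient of variation), and the highest WT library lay just below them (log2 fold change 0.21, SE 0.13). Ier2, a nuclear early response protein, was at 144, 176 and 189 CPM in CB2 KO and 115, 143 and 159 CPM in WT. Its groups overlapped through CB2 KO replicate 1 (log2 fold change 0.29, SE 0.16), and did not overlap without that library (log2 fold change 0.40, SE 0.15, adjusted p = 0.590 in edgeR's test).

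**Figure D2:**
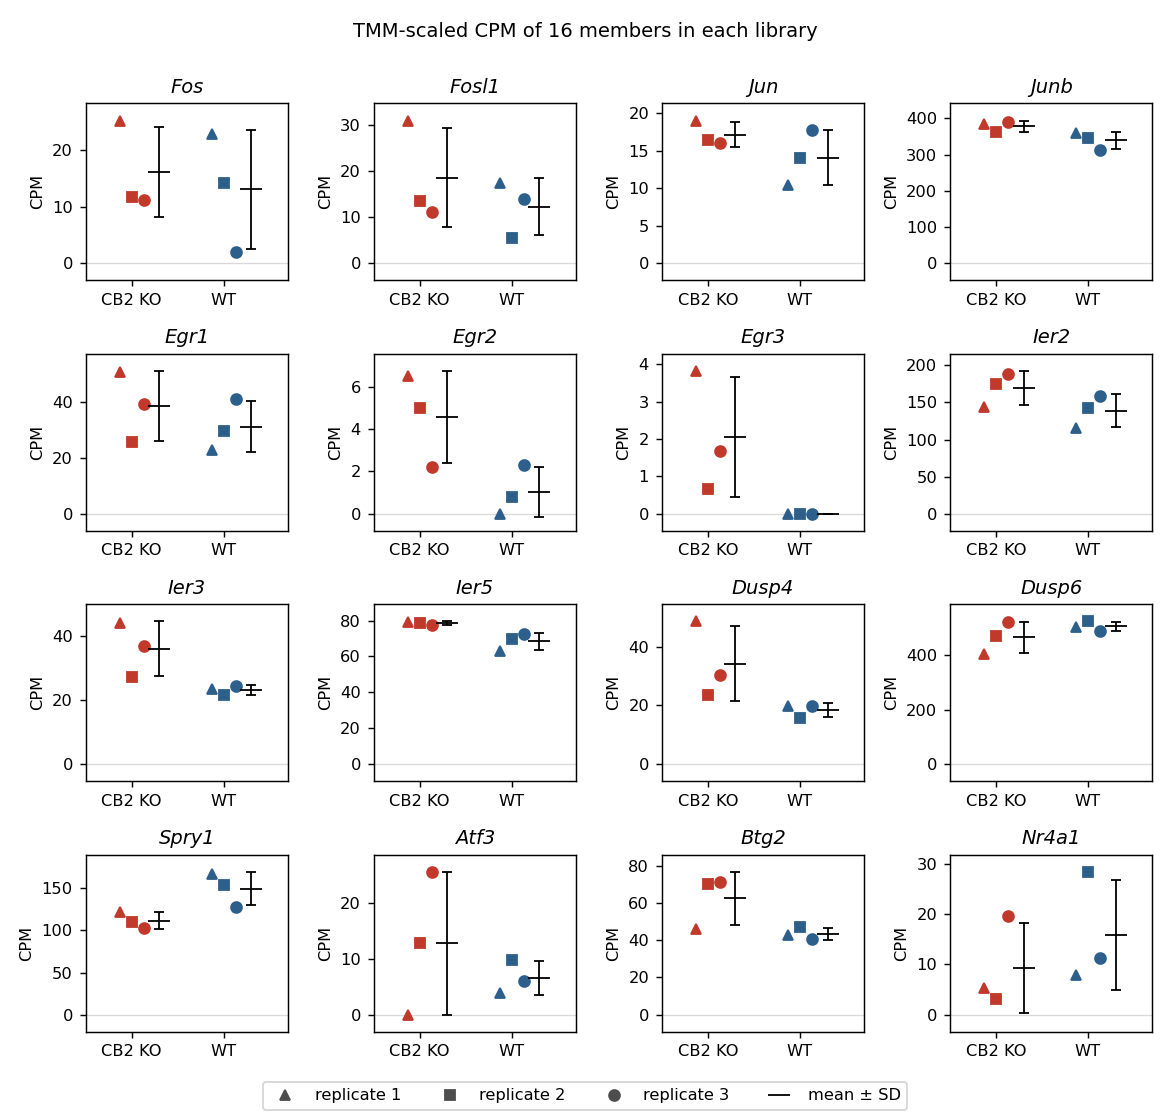
TMM-scaled CPM of 16 members in each library, with the mean and SD of each group of 3; marker shapes give the replicate. Egr3 is at 0 in all WT libraries, Ier3, Ier5 and Dusp4 lie higher in all CB2 KO libraries, Spry1 lies lower, and Fos, Nr4a1 and Atf3 scatter widely within a genotype.

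DUSPs remove phosphate from MAP kinases, and each has its preferred kinase and compartment. Dusp4, a nuclear phosphatase (chromosome 8, 34807297 to 34819894, plus strand), was at 48.5, 23.7 and 30.5 CPM in CB2 KO replicates 1 to 3, against 19.8, 15.8 and 19.7 CPM in WT replicates 1 to 3. All CB2 KO libraries lay above all WT libraries, CB2 KO replicate 1 farthest. With averages of 34.2 ± 12.8 CPM in CB2 KO and 18.4 ± 2.32 CPM in WT (SD, n = 3 each), the log2 fold change was 0.90 (SE 0.34) and the adjusted p 0.539 in edgeR's test. Leaving out the library labelled CB2 KO replicate 1 brought the log2 fold change to 0.54 (SE 0.27).

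Dusp6, the phosphatase gene with the highest level per exon length, encodes a cytosolic phosphatase selective for ERK and is itself switched on by ERK. It was at 404, 469 and 520 CPM in CB2 KO replicates 1 to 3, against 503, 523 and 489 CPM in WT replicates 1 to 3. Its groups overlapped, with CB2 KO replicate 1 lowest, and the log2 fold change was -0.12 (SE 0.10). Dusp5, a nuclear ERK phosphatase whose window is printed above, was at 69.8, 93.9 and 66.2 CPM in CB2 KO and 75.4, 74.0 and 78.1 CPM in WT, with WT inside the range of CB2 KO. Dusp1, the nuclear phosphatase that acts on p38 and JNK and is induced by glucocorticoids, was at 19.0, 28.4 and 29.5 CPM in CB2 KO and 25.8, 29.6 and 33.5 CPM in WT. Its groups overlapped as well. The low phosphatase genes Dusp2 and Dusp10 were erratic. Dusp2, a nuclear phosphatase of haematopoietic cells, was at 0, 5.57 and 0.291 CPM in CB2 KO and 3.26, 1.37 and 2.15 CPM in WT. Dusp10, which prefers JNK and p38, was at 5.22, 0 and 6.22 CPM in CB2 KO and 0, 8.58 and 4.36 CPM in WT, so each genotype had 1 library without a count.

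Sprouty and SPRED proteins hold back RAS and RAF below growth factor receptors. Spry1 (chromosome 3, 37639947 to 37644598, plus strand) was the member that lay lower in every CB2 KO library. It was at 123, 110 and 103 CPM in CB2 KO replicates 1 to 3, against 167, 154 and 128 CPM in WT replicates 1 to 3. The gap between the nearest libraries, CB2 KO replicate 1 and WT replicate 3, was small beside the spread within WT. Averages were 112 ± 9.96 CPM in CB2 KO and 149.7 ± 19.9 CPM in WT (SD, n = 3 each), a log2 fold change of -0.43 (SE 0.14), adjusted p = 0.452 in edgeR's test. The value was -0.49 (SE 0.15) without the library labelled CB2 KO replicate 1. Exons of Gm42922, listed at 14.5 to 43.2 counts, lie opposite 24.4% of the Spry1 exon bases. Whether reads were counted by strand is unknown, so the counts of Spry1 are uncertain too. Spred1 was at 3.78, 33.9 and 30.8 CPM in CB2 KO and 22.6, 17.2 and 39.2 CPM in WT. The groups overlapped apart from CB2 KO replicate 1, which held about a 10th of the highest library (10.4 times lower). Spry2 stayed under 0.6 CPM in every library, at 0.0994, 0.283 and 0.291 CPM in CB2 KO and 0.559, 0 and 0.509 CPM in WT.

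The NR4A orphan nuclear receptors, which report antigen receptor and calcium signals in T cells, were low. Nr4a1 was at 5.22, 3.16 and 19.7 CPM in CB2 KO and 7.87, 28.4 and 11.4 CPM in WT, a log2 fold change of -0.87 (SE 0.75) with overlapping groups. Single libraries set this value: it was -1.94 with CB2 KO replicate 3 left out, and -0.11 with WT replicate 2 left out. Nr4a2 had counts in 1 library of each genotype, 3.92 CPM in CB2 KO replicate 2 and 3.02 CPM in WT replicate 2, and was at 0 in the other 4.

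Myc, the growth regulator, was at 105, 188 and 164 CPM in CB2 KO and 148, 151 and 178 CPM in WT, with CB2 KO replicate 1 lowest and the other 5 overlapping (log2 fold change -0.06, SE 0.21). Srf, which binds the CArG box of many early genes and has a pair in its own window above, was at 33.8, 63.4 and 32.3 CPM in CB2 KO and 47.2, 37.9 and 45.4 CPM in WT. WT lay inside the CB2 KO range, and the log2 fold change of 0.02 (SE 0.30) changed sign under 5 of the 10 alternatives that keep all 6 libraries. Klf6, a Krüppel-like zinc finger factor, overlapped too, at 218, 241 and 217 CPM in CB2 KO and 263, 231 and 214 CPM in WT (log2 fold change -0.07, SE 0.10).

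The 3 members Btg2, Zfp36 and Zfp36l1 act on mRNA decay or translation after transcription. Btg2, an antiproliferative factor that recruits a deadenylase and the printed gene with a full CRE (chromosome 1, 134075170 to 134079120, minus strand), was at 46.0, 70.2 and 70.9 CPM in CB2 KO replicates 1 to 3, against 42.6, 47.0 and 40.8 CPM in WT replicates 1 to 3. CB2 KO replicates 2 and 3 were nearly equal and above WT, while CB2 KO replicate 1 was within the WT range. The averages of 62.3 ± 14.2 CPM in CB2 KO and 43.4 ± 3.19 CPM in WT (SD, n = 3 each) gave a log2 fold change of 0.51 (SE 0.22), adjusted p = 0.580 in edgeR's test. Without the first CB2 KO library it was 0.70 (SE 0.17), adjusted p = 0.409 in edgeR's test. Zfp36, which encodes tristetraprolin, a binder of AU-rich elements in cytokine mRNAs, was at 34.2, 22.2 and 21.9 CPM in CB2 KO and 19.4, 34.9 and 33.7 CPM in WT. In each genotype replicate 1 departed from the other pair, in opposite directions. Its relative Zfp36l1 was at 35.0, 29.6 and 29.9 CPM in CB2 KO and 30.5, 32.0 and 27.5 CPM in WT, a log2 fold change of 0.07 (SE 0.20).

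Levels of different genes were compared per kilobase of exon (CPM per kb, exon lengths from GENCODE M21). In CB2 KO the order began with Junb at 165 ± 6.69, Dusp6 at 148 ± 18.5, Ier2 at 111 ± 15.1, Jund at 109 ± 8.86 and Batf at 63.6 ± 11.8 CPM per kb (SD, n = 3). In WT it began with Dusp6 at 161 ± 5.41, Junb at 147.5 ± 10.4, Jund at 121 ± 13.8, Ier2 at 91.3 ± 14.4 and Batf at 63.0 ± 5.12 CPM per kb (SD, n = 3). Myc, Klf6 and Spry1 followed in that order in both genotypes. The library ranges of Junb and Dusp6 overlapped in both genotypes, as did those of 26 of 31 neighbouring pairs in CB2 KO and 24 of 31 in WT. The best known immediate early genes stood low in this order: Egr1 was at 8.61 ± 2.80 CPM per kb in CB2 KO and 6.97 ± 2.06 in WT, and Fos at 6.81 ± 3.38 in CB2 KO and 5.54 ± 4.44 in WT (SD, n = 3 each). Jun was at 5.37 ± 0.519 CPM per kb in CB2 KO and 4.40 ± 1.15 in WT. Dusp4 took the 14th place in CB2 KO, at 12.5 ± 4.69 CPM per kb, and the 18th in WT, at 6.73 ± 0.848.

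**Figure D3:**
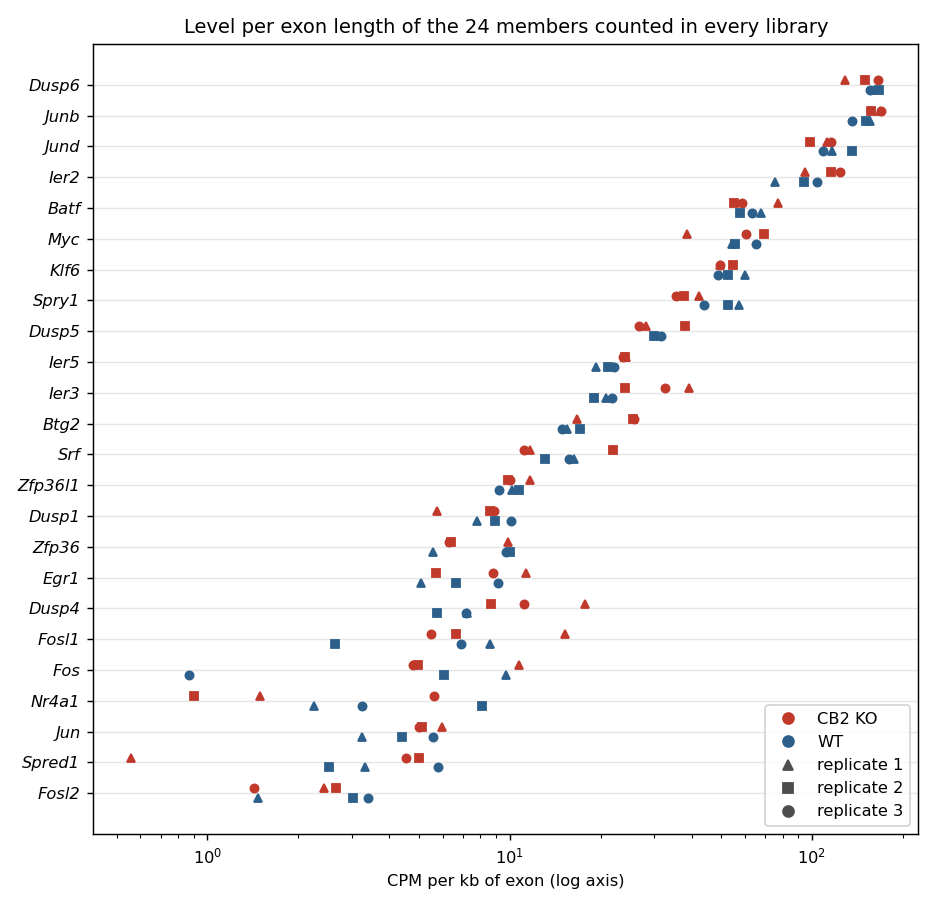
CPM per kb of exon, on a log axis, in each library for the 24 members counted in all 6, ordered by the WT mean. Dusp6, Junb, Jund and Ier2 head the order in both genotypes, and Fos, Nr4a1 and Spred1 show the widest scatter.

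The spread within genotypes was large for the low members. Among genes with a mean of 1 to 10 CPM, the median within-group SD of log2(CPM + 1) was 1.08 over 5 members and 0.69 over all 3956 tested genes. It was 0.38 over 17 members and 0.33 over all 6810 genes at 10 to 100 CPM, and 0.14 over 7 members and 0.15 over all 2352 genes at 100 to 1000 CPM. At least 1 library was at 0 for 5 of 29 tested members (Egr2, Egr3, Dusp2, Dusp10 and Atf3), beside 12.6% of all tested genes.

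The library labelled CB2 KO replicate 1 was the highest of the 6 for 12 of the 32 members and the lowest for 6. It was highest for Fos, Fosb, Fosl1, Jun, Egr1, Egr2, Egr3, Ier3, Ier5, Dusp4, Batf and Zfp36l1. It was lowest for Dusp1, Dusp2, Dusp6, Atf3, Myc and Spred1. The other libraries were highest for 3 to 5 members each and lowest for 3 to 6, with WT replicate 1 also lowest for 6. The same counts over all genes were not made, so these numbers need not be particular to the members. This library had 15021 genes with a count, against 15650 to 16526 in the others, and held no count for 30.3% of the genes whose mean count was 10 to 100, against 13.2 to 23.4% in the others. How far that moved the members was not tested. Without this library the median log2 fold change of the 29 was 0.10, within the 0.0430 to 0.115 given by leaving out each library in turn. The log2 fold change of Fos was -0.25 (SE 0.72) without this library, and -0.20 without WT replicate 3. That of Fosl1 was 0.02 (SE 0.51) without this library.

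**Figure D4:**
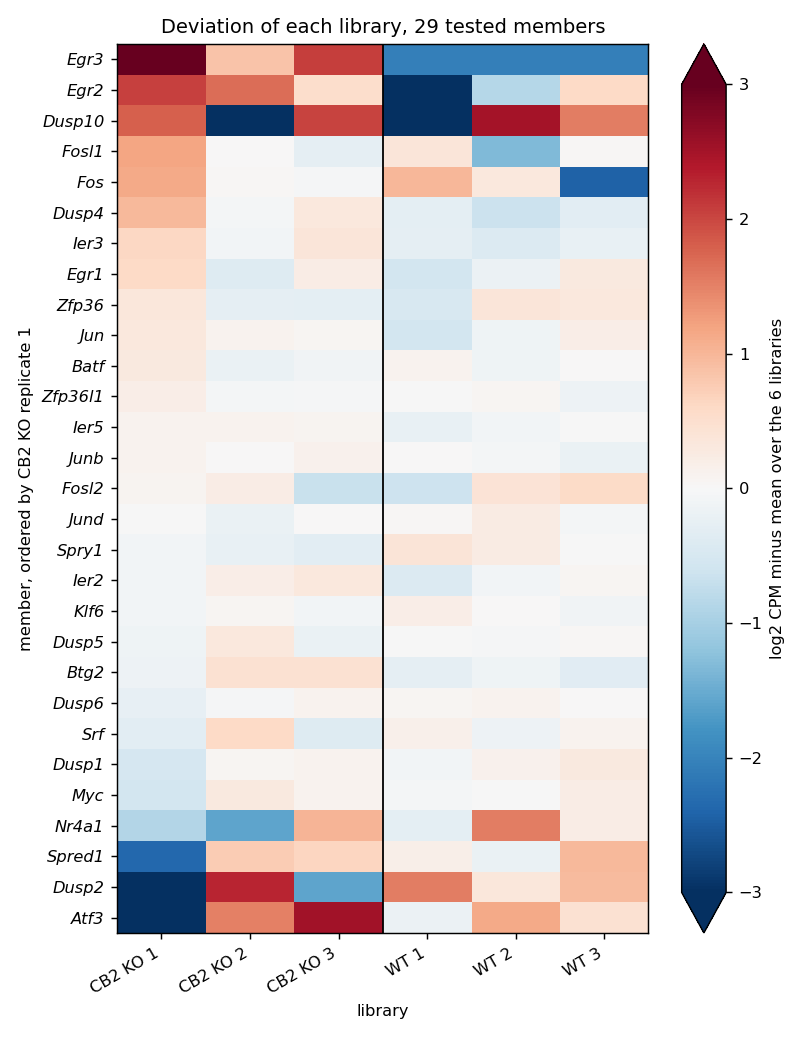
Log2 CPM (prior count 2) of the 29 tested members in each library, as the difference from the mean over all 6; colours end at 3 on either side. Members are sorted by CB2 KO replicate 1, so by construction its column falls from Egr3 and Egr2 at the top to Spred1, Dusp2 and Atf3 at the bottom. In CB2 KO replicates 2 and 3, Egr3 and Egr2 are also above the mean, and so are Spred1 and Atf3.

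Other genes of the same pathways are given by list; at an unadjusted p under 0.05, 4.33% of all tested genes were higher and 4.27% lower. Of 23 tested genes of the RAS, RAF, MEK and ERK cascade, 0 passed edgeR's adjusted threshold, 0 were higher and 2 lower at an unadjusted p under 0.05, and the median log2 fold change was -0.03. The adaptor gene Grb2 was at 228, 199.6 and 242 CPM in CB2 KO and 260, 261 and 278 CPM in WT. The ERK-activated kinase gene Rps6ka1 was at 315, 320 and 302 CPM in CB2 KO and 376, 363 and 323 CPM in WT. For Grb2 and Rps6ka1 the CB2 KO libraries lay below the WT libraries, as they did for 4 of the 23 genes in all. Of all tested genes, 7.2% did so. The CB2 KO libraries lay above the WT libraries for 0 of the 23, beside 6.91% of all tested genes. The summed level of the 23 was 2263 to 2411 CPM in CB2 KO and 2445 to 2550 CPM in WT, without overlap.

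Of 23 tested genes of the JNK and p38 cascade, 0 passed, 2 were higher and 0 lower at an unadjusted p under 0.05, and the median log2 fold change was -0.10. Gadd45b, a stress-inducible gene of this list, was at 25.2, 34.7 and 31.4 CPM in CB2 KO and 7.45, 13.8 and 19.0 CPM in WT, without overlap (log2 fold change 1.22, SE 0.34, adjusted p = 0.409 in edgeR's test). Mapkapk3, a kinase below p38, was at 414, 427 and 405 CPM in CB2 KO and 397, 330 and 343 CPM in WT. Mapk9, which encodes JNK2, was at 51.2, 100.7 and 69.4 CPM in CB2 KO and 98.9, 108 and 115 CPM in WT, overlapping through CB2 KO replicate 2. The 24 genes listed summed to 1896 to 2185 CPM in CB2 KO and 1926 to 2035 CPM in WT, with overlap.

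Of 20 tested other bZIP genes, 0 passed, 2 were higher and 0 lower at an unadjusted p under 0.05, with a median log2 fold change of 0.12. Batf3, a relative of Batf, was at 8.55, 5.33 and 7.73 CPM in CB2 KO and 1.68, 3.41 and 2.21 CPM in WT (log2 fold change 1.55, SE 0.47, adjusted p = 0.446 in edgeR's test). Crem, a cyclic AMP-responsive factor, was at 141, 131 and 121 CPM in CB2 KO and 86.8, 105 and 105 CPM in WT. Neither overlapped between groups. The 20 other bZIP genes summed to 1075 to 1164 CPM in CB2 KO and 1046 to 1112 CPM in WT, with overlap. Of 33 tested further early response genes, 0 passed, 5 were higher and 1 lower at an unadjusted p under 0.05, and the median log2 fold change was 0.29. The 35 genes listed summed to 4526 to 4701 CPM in CB2 KO and 4242 to 4501 CPM in WT, without overlap. The cell cycle inhibitor gene Cdkn1a was at 614, 589 and 598 CPM in CB2 KO and 465, 495 and 459 CPM in WT (log2 fold change 0.34, SE 0.06, adjusted p = 0.127 in edgeR's test). The NF-kappaB inhibitor gene Nfkbia was at 149, 115 and 128 CPM in CB2 KO and 96.8, 86.7 and 95.4 CPM in WT. The kinase gene Sgk1 was at 19.7, 21.0 and 23.2 CPM in CB2 KO and 8.11, 11.4 and 15.5 CPM in WT.

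Of 17 tested other phosphatases and RAS feedback genes, 0 passed and 1 was higher and 0 lower at an unadjusted p under 0.05 (median log2 fold change 0.02). The 19 found summed to 1777 to 1927 CPM in CB2 KO and 1888 to 1982 CPM in WT, with overlap. Of 13 tested calcineurin and NFAT genes, 0 passed, with 1 higher and 2 lower at an unadjusted p under 0.05 (median -0.11), and their sum was 3201 to 3367 CPM in CB2 KO and 3457 to 3547 CPM in WT, without overlap. A single gene of that list averaged 1764 CPM over all libraries, so it weighs heavily in the sum. Calm3, a calmodulin gene, was at 239, 219 and 231 CPM in CB2 KO and 294, 275 and 288 CPM in WT. Of 9 tested MYC partners, 0 passed, with 1 higher and 2 lower (median 0.10), and of 5 SRF cofactors, 0 passed, with 1 higher and 0 lower (median -0.09). Among the MYC partners, Mga was at 28.8, 22.6 and 19.6 CPM in CB2 KO and 47.2, 43.6 and 65.4 CPM in WT, and Mycl was at 23.7, 22.6 and 22.7 CPM in CB2 KO and 12.5, 14.1 and 8.26 CPM in WT. Elk4, an ERK-regulated SRF cofactor, was the higher one, at 21.5, 29.4 and 19.5 CPM in CB2 KO and 17.7, 13.3 and 10.6 CPM in WT. The MYC partners summed to 274 to 295 CPM in CB2 KO and 285 to 341 CPM in WT, with overlap. The SRF cofactors summed to 184 to 217 CPM in CB2 KO and 180 to 206 CPM in WT, also with overlap. Heat shock genes, which with early genes can report cell handling, gave 0 of 12 past the threshold, 2 higher and 0 lower at an unadjusted p under 0.05, and 8 with a positive log2 fold change (median 0.15). Of the 12, 4 lay higher in every CB2 KO library and 0 lower, beside 6.91% and 7.2% of all tested genes, and their summed level was 6327 to 6479 CPM in CB2 KO and 6212 to 6457 CPM in WT. The inducible Hspa1b was at 18.4, 8.63 and 14.2 CPM in CB2 KO and 8.76, 2.24 and 0 CPM in WT, overlapping slightly. The part of these genes in the early gene values was not tested.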

How the data were processed

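RNA of sorted lung ILC2s was measured in 3 CB2 KO and 3 WT libraries made from 10 ng of RNA, grouped by sample title. The authors deposited estimated counts per gene, made in Partek with an expectation-maximization step according to the file headers and names. They also deposited a normalized signal, in which the estimated count plus 1 is divided by 1 factor per library. CASAVA 1.8.2, STAR (version given as 3.5.3), Partek and mm10 are named in the submitters' processing notes; for the strand setting the sources used here give nothing. A read that matches several genes is shared out, so counts need not be whole; 10 of 32 members had a fractional count in some library (tolerance 0.01).

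Counts were rounded and tested over the whole table with edgeR 4.0.16 (R 4.3.3): low-count filter by filterByExpr, TMM scaling, robust quasi-likelihood fit (legacy=FALSE), two-sided test, Benjamini-Hochberg adjustment, threshold 0.05. Standard errors are the log2 fold change over the root of F. The code was tested on simulated data. Alternatives were DESeq2 1.42.0, limma 3.58.1 (voom, and log2 of the deposited signal), other scalings and filters, a replicate block, and leaving out each library. All 32 members match GENCODE M21 (GRCm38) by symbol and chromosome. No library repeats another: chi-square over its degrees of freedom was 31.0 or more for each pair.

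Members and lists were chosen with earlier results of these data known. Named genes are all members, Cnr2, and in each context list some of the genes past the threshold or else of the 3 with the smallest p at a mean of at least 1 CPM. Markers and genes named outside that rule were chosen after their values were seen. A gene of a context list is not reported here.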

Additional observations from a re-analysis of the deposited data

How the results depend on the processing

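Of 460 combinations of a tested member with an alternative, 430 kept the direction and the side of the threshold, 29 changed sign and 1 passed the threshold: Egr3 in DESeq2. Members past the threshold numbered 1 in DESeq2 and 0 in edgeR under every other setting and in limma. Over all genes, 15 passed in edgeR as reported, 35 with a mean count of at least 100, 363 in DESeq2 and 3 with the replicate block; the cause was not tested, beyond the fewer genes tested under the stricter filter. Same-numbered libraries had deviations correlated at 0.07, 0.03 and 0.02 for replicates 1 to 3, so the numbers were not taken to pair samples; with the replicate block 0 members passed, and the Srf log2 fold change was -4.30e-03.

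Sign changes with all 6 libraries were in values near 0 or with a library at 0. For Srf the log2 fold change was -2.27e-04 in DESeq2, -0.0489 in limma-voom, -0.0102 with legacy=TRUE and -0.0906 on the deposited signal. For Atf3 it was -1.76 in limma-voom and -1.30 on the deposited signal, and on that signal it was -0.0163 for Dusp5 and -0.0136 for Batf. The median over tested members was -0.02 on that signal, where the median over all genes was -0.03.

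Leaving out 1 library at a time gave 3 to 10 genes past the threshold, 7 to 10 of 29 members without overlap (23.2 to 25.2% of all genes, against 14.1% with all 6 libraries) and a member median of 0.0430 to 0.115. Members that changed sign ranged from -0.0114 to 1.50 (Atf3), -0.15 to 0.11 (Batf), -0.87 to 0.88 (Dusp10), -4.03 to 0.49 (Dusp2), -0.15 to 0.11 (Dusp5), -0.25 to 0.91 (Fos), -0.13 to 0.0128 (Klf6), -0.25 to 0.16 (Myc), -0.66 to 0.34 (Spred1), -0.39 to 0.18 (Srf), -0.39 to 0.0154 (Zfp36) and -0.0156 to 0.12 (Zfp36l1). Egr2 ranged from 1.64 to 3.60 and Nr4a1 from -1.94 to -0.11. Spry2 (at most 12 counts a library) and Fosb (at most 30) rest on few counts. Dusp10, Nr4a2 and Atf3 were at 0 in some libraries and at 62 to 441 counts in others of like depth, a spread beyond counting error.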
